A study of Mus musculus with 20 samples.

Results

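The cytosolic ribosomal protein genes, which encode the protein part of the ribosome, were followed across skin and pancreas libraries of mice with and without chronic inflammation. They were taken as the protein-coding genes whose symbol is Rpl or Rps with a number and an optional suffix a, x, l or l1, together with Rplp0, Rplp1, Rplp2 and Rpsa. This gave 82 genes of the 55471 in the table, of which 51 belong to the large subunit and 31 to the small subunit. Cytosolic ribosomal proteins with symbols outside this pattern, among them Rps3a1, Rpl36al, Fau and Rack1, were counted apart.

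The study used these libraries to look for the pathway through which chronic inflammation induces the cytokine IL-33 in 2 epithelial organs. It held 20 bulk Smart-Seq2 libraries of wild-type (genotype WT) mice in 4 groups of 5, from skin labelled as epithelial, which the study's methods describe as epidermis of the back, and from pancreas. Acetone skin received the acetone and olive oil vehicle alone. DNFB skin came from mice of both sexes treated with 2,4-dinitro-1-fluorobenzene, a contact allergen, from an age of 4 to 6 weeks at the first sensitisation. These mice were sensitised on the abdomen at 0.5% and then 0.25% and challenged on the back 3 times a week for 22 days. PBS pancreas came from mice injected with phosphate-buffered saline, and caerulein pancreas from mice given caerulein, a peptide that overstimulates acinar secretion, at 50 μg/kg in 6 hourly injections on 3 days a week for 3 weeks. The age of the acetone mice was not given separately, and that of the pancreatitis mice was not given in the sources used here. Libraries carry label numbers from 1 to 20, so no number pairs libraries of different groups. Labels did not state whether each library was 1 animal, so p-values measure only the spread between these libraries.

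Ribosomes are built from a small subunit, which reads the mRNA, and a large subunit, which joins amino acids. Ribosomal protein genes are expressed in nearly every cell, and each protein is needed in about equal amounts. Many of their mRNAs begin with a terminal oligopyrimidine tract, a C at the first base followed by more C or T, through which mTOR signalling and the protein Larp1 adjust their translation. Acinar cells of the pancreas are known for a very high rate of protein synthesis, nearly all of it for secreted digestive enzymes.

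The start windows of the members that the comparisons below turned on are shown first. Each runs from 15 bases before the RefSeq transcription start through the first 15 transcribed bases, 5′ to 3′ on the gene's strand in build GRCm38.p6. The windows are chr3:90213634-90213663 (Rps27, minus strand), chr14:18270972-18271001 (Rpl15, minus), chr17:33955651-33955680 (Rps18, minus), chr7:4792950-4792979 (Rpl28, plus), chr7:99483695-99483724 (Rps3, minus), chr5:65391417-65391446 (Rpl9, minus) and chr9:120127751-120127780 (Rpsa, plus). Capitals mark a C followed by at least 4 bases that are C or T, beginning within 5 bases of the start:
Rps27: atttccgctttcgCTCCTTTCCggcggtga
Rpl15: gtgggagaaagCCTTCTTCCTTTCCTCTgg
Rps18: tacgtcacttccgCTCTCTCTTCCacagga
Rpl28: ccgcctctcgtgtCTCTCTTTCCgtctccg
Rps3: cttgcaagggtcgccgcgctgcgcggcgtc
Rpl9: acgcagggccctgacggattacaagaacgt
Rpsa: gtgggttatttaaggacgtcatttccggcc

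RefSeq windows were matched for 62 of the 82 genes. A tract beginning with C exactly at the annotated start, read on the gene's own strand, was found in 13 of the 62 genes (20.97%) and in 3.008% of all 27025 genes of that table. Allowing the tract to begin within 5 bases of the start raised these to 29 genes (46.77%) and 21.16%. Rps27, Rps18 and Rpl34 (at both of its annotated starts), which were called higher in caerulein pancreas, had a tract within 5 bases of the start, as did Rpl15 and Rpl28, which had a positive and a negative value there and did not pass. Rps3 and Rpl9, also called higher, and Rpsa, with a negative value, had none in these windows. Genes with and without these letters thus stood on both sides. Absence of a tract holds only for the RefSeq starts used. In the gene annotation, Rps3 began at base 99483738 and Rpsa at base 120127689, both outside their windows. Rpl28, which had a tract, also began outside its window there, at base 4792874. Starts outside the RefSeq entries were not searched, so these windows do not show that a gene lacks the tract.

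Library totals lay between 791491 and 2232040 counts. Of these, 37.8 to 94.3% fell on 11 predicted genes of shared satellite-like sequence, and the remaining counts, called usable here, ran from 70021 in PBS library 15 to 1074200 in acetone library 11. Acetone libraries 11 and 12 stood apart from acetone libraries 1 to 3, which had 93048 to 153197 usable counts. The tissue labels were checked against defining markers. The 10 keratinocyte genes took 0.134 to 1.64% of usable counts in skin and at most 0.0162% in pancreas, where Krt5 and Lor had no counts. Genes known from other cell types were counted in skin too. There, 6 fibroblast genes took 0.0416 to 0.268% and 4 striated muscle genes 0.0301 to 0.112%. The 10 acinar genes took 5.95 to 28.2% in PBS pancreas, 0.661 to 7.68% in caerulein pancreas and at most 0.0150% in skin. In caerulein against PBS pancreas, 9 of the 10 acinar genes were lower, and 2 of the 5 leukocyte genes tested were higher, at an adjusted p under 0.05. In bulk tissue, fewer cells of a type and less RNA per cell cannot be told apart.

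Taken as one sum, the ribosomal protein genes held the smallest part of usable counts in PBS pancreas. The shares in acetone skin were 0.529% in library 1, 2.08% in library 2, 0.955% in library 3, 5.89% in library 11 and 4.59% in library 12. In DNFB skin they were 3.81%, 1.37%, 6.08%, 4.17% and 1.97% in libraries 4, 5, 6, 13 and 14. The PBS pancreas shares were 1.25%, 1.63%, 0.831%, 0.933% and 0.806% in libraries 7, 8, 15, 16 and 17. The caerulein pancreas shares were 1.33%, 3.21%, 1.57%, 4.51% and 3.34% in libraries 9, 10, 18, 19 and 20. The group means were 2.81% ± 2.34 in acetone skin, 3.48% ± 1.87 in DNFB skin, 1.09% ± 0.35 in PBS pancreas and 2.79% ± 1.33 in caerulein pancreas (SD, n = 5 each). The skin groups overlapped over nearly their whole range. In the pancreas, 3 of the 5 caerulein libraries lay above every PBS library, and caerulein libraries 9 and 18 lay inside the PBS range.

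**Figure D1:**
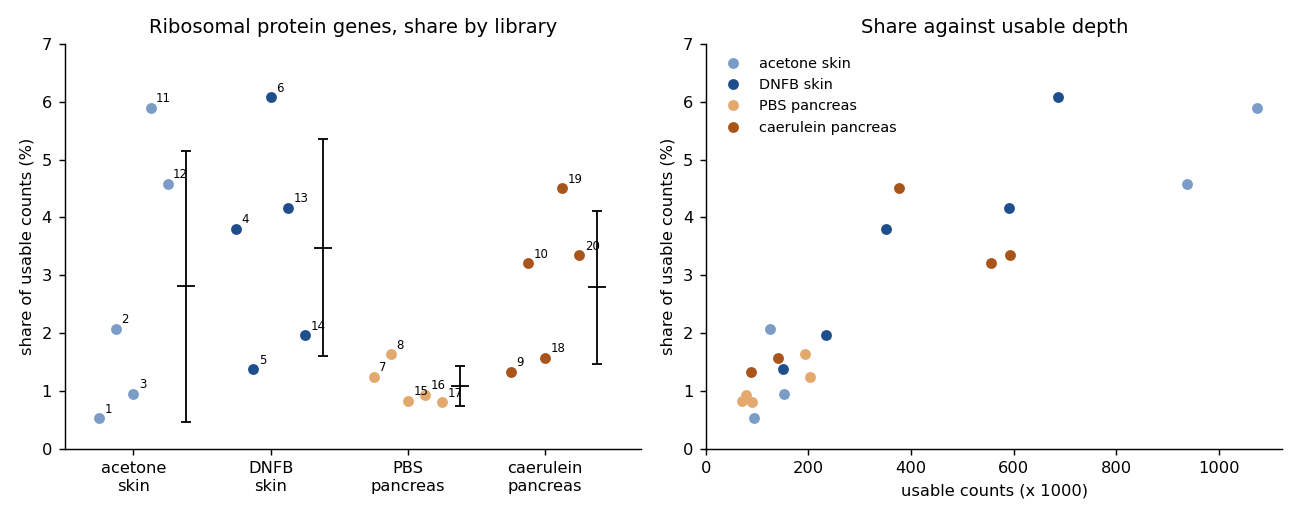
Left, share of usable counts (%) on the 82 ribosomal protein genes in each library, with label numbers beside the points and the mean and SD of each group as bars; right, the same share against usable counts, in units of 1000. PBS pancreas lies between 0.806% and 1.63%, and the 8 libraries with the most usable counts have shares of 3.21 to 6.08%, above the other 12.

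The share moved with usable depth. The 8 libraries with at least 10000 ribosomal protein counts (acetone 11 and 12, DNFB 4, 6 and 13, caerulein 10, 19 and 20) had shares of 3.21 to 6.08%, and the other 12 had 0.529 to 2.08%. No PBS library was among the 8. Acetone library 1 held 492 ribosomal protein counts, and its share of 0.529% had an exact 95% Clopper-Pearson interval of 0.483 to 0.577%, which covers counting error only. The part that depth or RNA quality played in the share was not tested. Large-subunit counts exceeded small-subunit counts in every library, by 1.42 ± 0.20 times in acetone skin, 1.46 ± 0.06 in DNFB skin, 1.56 ± 0.12 in PBS pancreas and 1.51 ± 0.17 in caerulein pancreas (SD, n = 5 each), and these ranges overlapped.

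In skin, no ribosomal protein gene passed the test between DNFB and acetone. Of 79 members tested by edgeR's quasi-likelihood test, 0 had an adjusted p under 0.05 and 0 an unadjusted p under 0.05, where 0.0413% and 5.81% of all 7265 genes tested did. The log2 fold changes, DNFB over acetone, ranged from -0.53 for Rpl22 to 0.69 for Rpl27 with a median of 0.23, against 0.02 over all genes. The median standard error of a member was 0.67. The interval of Rpl27 (-0.45 to 1.83) and that of Rpl22 (-1.59 to 0.53) both held 0 and did not exclude a 2-fold change. DESeq2 also called 0 of 80 members.

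The members at both ends of the skin list show the spread. Rpl27, a large-subunit protein, had 6.44, 22.7, 5.34, 39.0 and 30.3 normalized CPM (counts scaled to the summed counts of the genes tested after TMM scaling) in acetone libraries 1, 2, 3, 11 and 12. In DNFB libraries 4, 5, 6, 13 and 14 it had 39.3, 28.9, 63.9, 34.1 and 11.2. The DNFB range reached above the highest acetone library, but DNFB library 14 lay below acetone libraries 2, 11 and 12. Rpl22, an RNA-binding large-subunit protein known for a role in T cell development, had 29.00, 39.8, 10.7, 41.0 and 38.7 normalized CPM in acetone skin. In DNFB skin it had 22.03, 3.40, 36.2, 28.6 and 17.8. Its adjusted p was 0.97 (log2 fold change -0.53 ± 0.54 SE). No member separated the skin groups completely, and 1.25% of all genes tested did. Of the other members at the ends, Rpl7a (0.66 ± 0.72 SE) and Rpl15 (0.52 ± 0.62 SE) were highest after Rpl27, and Rps2 (-0.31 ± 0.77 SE) and Rps12 (-0.28 ± 0.58 SE) lowest after Rpl22, all log2 fold changes with an adjusted p of 0.98.

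The skin median depended on the acetone libraries of the later number series. Within label numbers 1 to 10, the median log2 fold change of 75 members was 1.45, and 0 were called. Within numbers 11 to 20 it was -0.66 over 79 members, with 0 called. Of all genes tested, 0 of 4035 were called within numbers 1 to 10 and 8.66% of 11259 within numbers 11 to 20. The labels give no reason for the 2 number series, and series and acetone usable depth cannot be told apart, since both deep acetone libraries carry later numbers. Acetone libraries 11 and 12 also had 0.302 and 0.374% of usable counts on leukocyte genes, against 0.0170 to 0.0322% in libraries 1 to 3. Keratinocyte genes took 1.37 and 1.64% there, against 0.141 to 0.787%. The part of cell type composition was not tested.

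In the pancreas, 5 ribosomal protein genes were higher in caerulein than in PBS and 0 were lower. Rps3, a small-subunit protein at the mRNA entry channel, Rpl9, Rps18, Rps27 and Rpl34 passed an adjusted p of 0.05 among 64 members tested. This is 7.81% of the members, where 8.14% of all 946 genes tested were higher and 4.02% lower, so the share of called members was near the background. With an unadjusted p under 0.05, the members higher numbered 22 and those lower 0, where 17.2% of all genes tested were higher and 12.1% lower. The median log2 fold change of the members was 0.80 and that of all genes tested was -0.0026, and 52 of the 64 members had a positive value. Small-subunit members had a median of 1.16 (27 tested) and large-subunit members one of 0.69 (37 tested).

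Rps3 had 8.79, 13.9, 13.9, 7.19 and 3.09 normalized CPM in PBS libraries 7, 8, 15, 16 and 17. In caerulein libraries 9, 10, 18, 19 and 20 it had 12.1, 69.0, 22.6, 77.3 and 96.6. Caerulein library 9 lay inside the PBS range and the other 4 above it, with a log2 fold change of 2.56 ± 0.70 SE (adjusted p = 0.027, edgeR). Rpl9, a large-subunit protein, had 16.1, 6.97, 3.97, 0 and 3.09 in PBS and 3.64, 45.2, 23.4, 48.2 and 58.6 in caerulein (log2 fold change 2.54 ± 0.79 SE, adjusted p = 0.041). Rps18, a protein of the small-subunit head, had 10.3, 12.2, 1.98, 0 and 4.64 in PBS and 12.1, 34.7, 13.3, 51.8 and 51.3 in caerulein (2.40 ± 0.73 SE, adjusted p = 0.038). Again, caerulein library 9 alone overlapped the PBS libraries in both genes. In counts, the PBS libraries had 11, 8, 2, 0 and 2 for Rpl9 and 7, 14, 1, 0 and 3 for Rps18. Both values thus rest on few PBS counts.

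Rps27, a zinc-finger protein of the small subunit, rose from 8.46 ± 3.59 to 35.7 ± 22.3 normalized CPM (SD, n = 5 each; log2 fold change 2.06 ± 0.65 SE, adjusted p = 0.043). Rpl34 rose from 5.65 ± 3.25 to 21.9 ± 11.1 (1.92 ± 0.61 SE, adjusted p = 0.043). Rpl15, a core large-subunit protein, had the third highest value, 2.45 ± 0.83 SE, and did not pass (adjusted p = 0.059). With the number series as a covariate, Rps27 (adjusted p = 0.0618, edgeR) and Rpl34 (adjusted p = 0.0518, edgeR) were no longer called.

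The lowest values belonged to Rpsa, Rpl28 and Rps15, and none of them passed. With only genes of at least 10 counts in every library, the 3 had positive values (0.24, 0.44 and 0.72, 13 members tested). Rpsa, a small-subunit protein also known as the laminin receptor, had 354, 236, 103, 252 and 114 normalized CPM in PBS and 86.04, 95.6, 70.2, 122 and 89.3 in caerulein (log2 fold change -1.19 ± 0.61 SE, adjusted p = 0.19). Rpl28, a large-subunit protein, had 45.4, 33.1, 31.7, 43.2 and 24.7 in PBS and 24.2, 17.1, 14.8, 14.7 and 22.6 in caerulein (-0.93 ± 0.53 SE, adjusted p = 0.24). Every caerulein library lay below every PBS library in Rpl28, the single member lower without overlap, where 2.22% of all genes tested were. Rps20, a small-subunit protein named here after its values were seen, was the single member higher without overlap, where 2.54% of all genes tested were. It had 7.32, 7.85, 1.98, 3.60 and 9.27 normalized CPM in PBS and 13.3, 12.3, 9.36, 28.8 and 18.1 in caerulein (log2 fold change 1.41 ± 0.56 SE, adjusted p = 0.10).

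**Figure D2:**
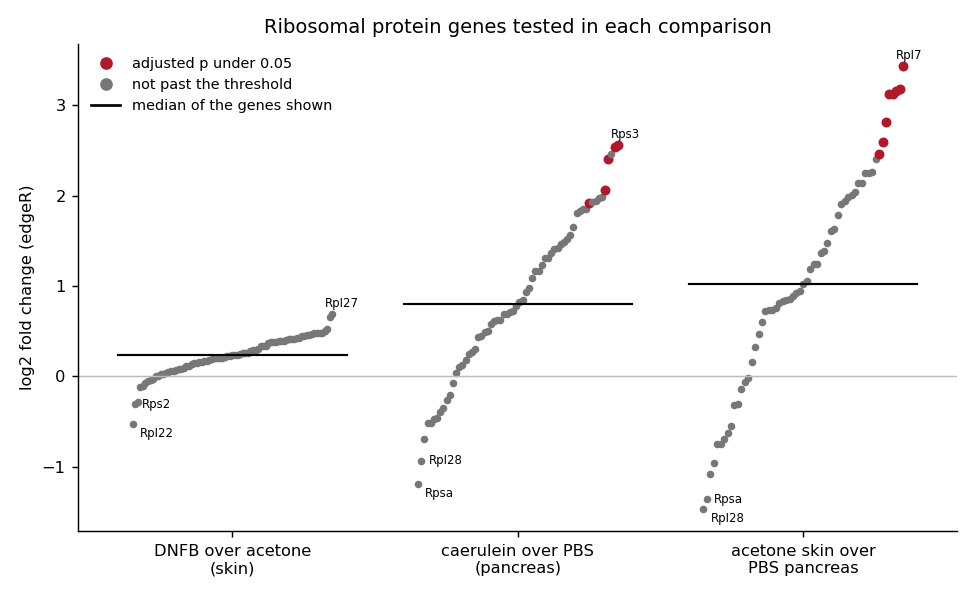
Log2 fold change (edgeR) of each ribosomal protein gene tested, in rank order within DNFB over acetone skin, caerulein over PBS pancreas and acetone skin over PBS pancreas; red points have an adjusted p under 0.05 and black lines are medians. The skin values stay within -0.53 and 0.69, and the pancreas values reach 2.56 for Rps3.

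The count of members called in pancreas rested on single libraries. It was 0 without PBS library 7, 15, 16 or 17 or without caerulein library 10, 19 or 20, 6 without caerulein library 18, 9 without caerulein library 9 and 11 without PBS library 8. The counts of 6, 9 and 11 are 9.09%, 12.5% and 15.5% of the members tested. Of all genes tested in those fits, 6.19%, 9.92% and 14.4% were higher. The median of the tested members stayed between 0.47 and 1.13 in these 10 fits. Within label numbers 11 to 20, 37 of 65 members were higher (56.9%, against 21.7% of all genes tested) with a median log2 fold change of 2.23. Within numbers 1 to 10, with 2 libraries a group, 0 of 66 were called (against 0.432% of all genes tested) and the median was -0.06. Scaling to usable counts called 28 of 64 members, all higher (43.8%, against 20.3% of all genes tested), with a median of 1.59 against 0.62 over all genes.

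Other measures moved with the ribosomal protein genes across the caerulein libraries. Caerulein libraries 9 and 18, with 1.33% and 1.57% of usable counts on these genes, had 4.38% and 7.68% on the 10 acinar genes. Caerulein libraries 10, 19 and 20 had 0.661 to 1.31% on the acinar genes. Leukocyte genes took 0.119% and 0.155% in libraries 9 and 18 and 0.317 to 1.49% in the other 3, and fibroblast genes 0.139% and 0.149% against 0.307 to 1.11%. Libraries 9 and 18 also had the fewest usable counts, 88226 and 140017, against 376954 to 592100. The part of cell type composition and of depth in the caerulein values was not tested.

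Between the control tissues, 8 members were higher in acetone skin than in PBS pancreas and 0 were lower. These were Rpl7, Rps18, Rpl15, Rpl9, Rps3, Rpl4, Rps4x and Rpl34, or 13.6% of the 59 members tested. Of all 736 genes tested, 12% were higher in skin and 13.2% lower, so this share too was near the background. Tissue and treatment protocol cannot be told apart in this comparison. The counts on the pancreas side were few. In PBS libraries 7, 8, 15, 16 and 17, Rpl7 had 7, 9, 1, 3 and 2. Rpl15 had 4, 12, 0, 0 and 2 there, and Rps18 had 7, 14, 1, 0 and 3. Members this rare in pancreas passed the count filter mainly through the skin libraries, so among them the filter favoured those higher in skin. The median log2 fold change of the members was 1.03, against -0.04 over all genes. With satellite-like genes left out, 6 of 59 members were higher in skin and 1, Rpl28, was lower. This is 11.9% of the members, where 20.8% of all 662 genes tested were called in either direction. Rpl34, Rpl4 and Rps4x were then no longer called, and Rps15a was. In that fit the median of the members was 0.40, against -0.10 over all genes.

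Rpl7, an RNA-binding protein of the large subunit, had the highest value. It had 29.3, 35.9, 23.3, 144 and 104 normalized CPM in acetone skin and 11.5, 9.502, 1.85, 4.84 and 3.05 in PBS pancreas (log2 fold change 3.43 ± 0.85 SE, adjusted p = 0.0049, edgeR). Rps3 had 27.5, 57.4, 22.5, 175 and 150 in acetone skin and 9.87, 16.9, 12.97, 6.45 and 3.05 in PBS pancreas (3.12 ± 0.86 SE, adjusted p = 0.011). Rpl7, Rps3, Rpl9 and Rpl15 had every skin library above every pancreas library, where 6.66% of all genes tested did. Rps4x, an X-linked small-subunit protein (2.60 ± 0.90 SE, adjusted p = 0.036), and Rpl4 (2.81 ± 0.89 SE, adjusted p = 0.024), a large-subunit protein that reaches into the peptide exit tunnel, overlapped between tissues. With the number series as a covariate these 2 were no longer called. Rps18 (3.17 ± 0.93 SE), Rpl15 (3.16 ± 0.87 SE), Rpl9 (3.13 ± 0.90 SE) and Rpl34 (2.46 ± 0.68 SE) had adjusted p-values of 0.015, 0.011, 0.014 and 0.012.

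At the other end, Rpl28 (-1.47 ± 0.70 SE, adjusted p = 0.13), Rpsa (-1.36 ± 0.82 SE, adjusted p = 0.23) and Rps15 (-1.08 ± 0.84 SE, adjusted p = 0.36) had the lowest values and did not pass. Rpl28 had 3.67, 9.23, 1.73, 28.7 and 19.6 normalized CPM in acetone skin and 51.0, 40.1, 29.7, 38.7 and 24.4 in PBS pancreas. The 2 tissues overlapped only through acetone library 11 and PBS library 17. The calls again followed the number series. Within numbers 1 to 10, Rpl28, Rps15 and Rpsa were lower in skin, 0 members were higher, and the median was -0.88. These genes are 4.17% of the 72 members tested, where 103 of all 1468 genes tested were lower. Within numbers 11 to 20, 65 of 79 members were higher (82.3%, against 26.2% of all genes tested) with a median of 2.82. Leaving out acetone libraries 11 and 12 left Rpl7 and Rps3 higher and Rpl28 lower (5.08% of members, against 11.5% of all genes tested), with a median of 0.13. Rpl7 was higher in each of the 10 fits that left out 1 library, in which the count of members called ran from 2 (without PBS library 16 or 17) to 22 (without acetone library 3). It was 3 without PBS library 15, 4 without PBS library 7 and 13 without PBS library 8. In these 10 fits 2.78 to 33.3% of the members were called, where 6.22 to 19.4% of all genes tested were higher.

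The make-up of the ribosomal protein counts was compared next, with each member expressed per 1000 ribosomal protein counts of its library, so that the summed level no longer entered. Between acetone skin and PBS pancreas, 12 of 59 members passed an adjusted p of 0.05 in edgeR with library sizes set to these sums. Rps18, Rpl15, Rps3, Rps4x, Rpl4, Rpl7 and Rpl9 took a larger part in skin, where 5.57% of all genes tested on this scale were higher. Another 5 members, among them Rpl28, Rpsa, Rps15 and Rpl41, took a larger part in pancreas, where 7.61% of all genes tested were. The 12 are 7 of 59 (11.9%) and 5 of 59 (8.47%) of the members. The 59 passed the same count filter as above, which favoured, among members rare in pancreas, those higher in skin.

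Rpsa held 32.5, 21.3, 19.1, 22.9 and 21.99 per 1000 in acetone skin and 96.2, 86.3, 89.3, 193 and 102 per 1000 in PBS pancreas (log2 difference, skin over pancreas, -2.27 ± 0.48 SE, adjusted p = 0.0060, edgeR). The lowest pancreas library was above the highest skin library by more than the whole skin range. Rpl28 held 1.37 to 4.07 per 1000 in acetone skin and 12.1 to 33.1 in PBS pancreas (-2.77 ± 0.59 SE, adjusted p = 0.0060). Rpl15 held 16.3, 6.97, 19.8, 11.4 and 9.57 per 1000 in skin and 1.59, 3.82, 0, 0 and 2.74 in pancreas (2.77 ± 0.82 SE, adjusted p = 0.040). Rpl7 held 13.6 to 32.5 per 1000 in skin and 1.72 to 4.14 in pancreas (2.77 ± 0.57 SE, adjusted p = 0.0045). In these 4 members the tissues did not overlap. On this scale 13 of the 59 members were higher in skin without overlap, where 7.34% of all 736 genes were, and 9 were lower, where 8.97% of all genes were.

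**Figure D3:**
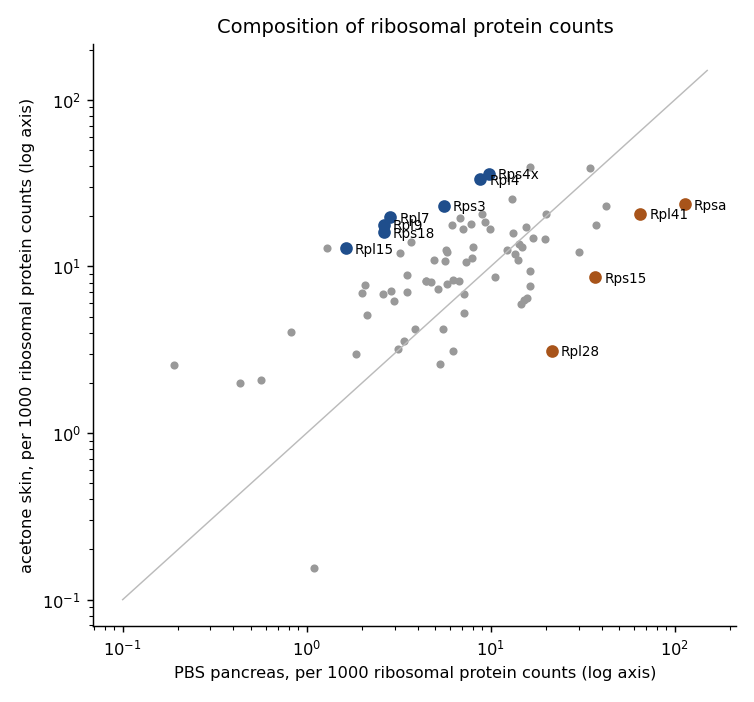
Mean number of counts per 1000 ribosomal protein counts in PBS pancreas (x, log axis) and acetone skin (y, log axis), 1 point a reported gene with counts in both groups and n = 5 libraries each; the line marks equal values. The 4 labelled brown genes lie to the right of the line, with Rpsa at 113 in pancreas and 23.6 in skin, and the 7 labelled blue genes lie above it.

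The named genes were then summed in every library, as a description, since the control libraries had chosen them. The 4 genes Rpl28, Rpsa, Rps15 and Rpl41 took 18.4 to 33.9% of the ribosomal protein counts in PBS pancreas and 4.99 to 6.30% in acetone skin. In DNFB skin, which had no part in the choice, they took 4.89 to 6.55% (mean 5.75% ± 0.61, SD, n = 5). In caerulein pancreas, likewise not used, they took 16.6% in library 9, 6.97% in library 10, 11.03% in library 18, 7.13% in library 19 and 7.07% in library 20. By their values alone, all 5 caerulein libraries lay above all 10 skin libraries and below all 5 PBS libraries. At the skin end, 95% Clopper-Pearson intervals were 6.60 to 7.35%, 6.75 to 7.53% and 6.71 to 7.43% in caerulein libraries 10, 19 and 20. They overlapped those of DNFB library 14 (5.85 to 7.31%) and acetone library 1 (4.32 to 8.82%). The interval of caerulein library 18, 9.75 to 12.4%, lay above both of these skin intervals. The exact 95% Clopper-Pearson interval of caerulein library 9, the highest, was 14.5 to 18.8%, and that of PBS library 8, the lowest of its group, was 17.1 to 19.8%. These intervals overlap.

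The 7 genes larger in acetone skin ran the other way, with less separation. They took 12.3 to 19.1% in acetone skin, 14.8 to 16.9% in DNFB skin and 2.76 to 4.14% in PBS pancreas. In caerulein libraries 9, 10, 18, 19 and 20 they took 5.96%, 12.5%, 8.03%, 11.2% and 14.7%. Unlike in the 4-gene sum, the values themselves of caerulein libraries 10 and 20 overlapped skin, both lying above acetone library 2 at 12.3%. Caerulein libraries 9 and 18, again closest to PBS pancreas, were those with 4.38% and 7.68% of usable counts on acinar genes. Acetone library 2 and PBS libraries 7 and 8, with 2581, 2516 and 3141 ribosomal protein counts, gave 5.85%, 23.1% and 18.4% for the 4-gene sum. The part of depth in the make-up was not tested.

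**Figure D4:**
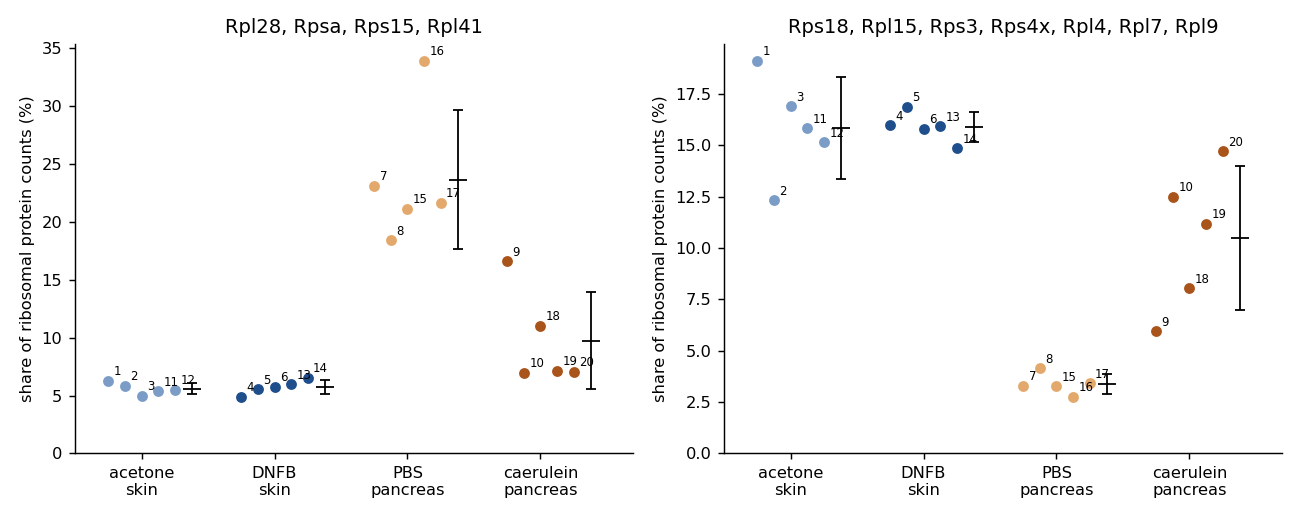
Share of each library's ribosomal protein counts (%) taken by the 4 named genes with a larger part in PBS pancreas (left) and by the 7 genes with a larger part in acetone skin (right); numbers are library labels and bars are mean and SD of 5 libraries. Caerulein libraries 9 and 18 lie nearest the PBS libraries in both panels.

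DNFB skin against caerulein pancreas shares no library with the comparison that chose these genes. All 4 genes of the first sum had a lower value in DNFB skin, with log2 differences from -1.09 to -0.65, and all 7 of the second a higher one, from 0.28 to 0.92. None of them passed, and 0 of 79 members were called there, where 0.942% of all 6260 genes tested were higher and 1.95% lower. Negative values with an unadjusted p under 0.05 were found in 3 of 79 members, Rpl38 and Rpl37a among them, against 8.75% of all genes tested. Caerulein against PBS on this scale also gave 0 of 64 called, and 16 members at an unadjusted p under 0.05 (13 higher and 3 lower), 25% against 21.8% of all genes tested. In skin, DNFB against acetone gave 0 of 79, with 0 at an unadjusted p under 0.05, and 0.0275% of all genes tested were called.

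The control difference in make-up held its direction for all 11 named genes within each number series, when any library was left out and when copies of these genes were added. These fits reuse the libraries that chose the genes and their direction. The kept direction was thus largely fixed in advance and is no separate support. The calls did not hold: within numbers 1 to 10 none of the 11 passed, within numbers 11 to 20 all 11 did, with no filter on low counts 0 members passed, and leaving out 1 library gave 2 to 10 called members in all. The lowest count, 2, came without acetone library 2. Across 59 members, the log2 difference had Spearman's rho of 0.31 with coding length and -0.38 with transcript GC content, given as a description across genes that share libraries.

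The response to DNFB in skin and that to caerulein in pancreas were compared by an interaction term over all 20 libraries. Of 79 members, 0 passed an adjusted p of 0.05, where 0.264% of all 8336 genes tested did. At an unadjusted p under 0.05, 4 members had a lower response in skin and 0 a higher one, where 12.2% of all genes were lower. These were Rps15a, named after its values were seen (log2 difference -3.27 ± 1.18 SE, adjusted p = 0.15, edgeR), Rps27l (-2.85 ± 1.12 SE, adjusted p = 0.18), Rpl9 (-2.19 ± 1.03 SE, adjusted p = 0.25) and Rpl7 (-2.17 ± 0.95 SE, adjusted p = 0.22). In PBS libraries 7, 8, 15, 16 and 17, Rps15a had 1, 4, 2, 0 and 1 counts. Rps27l had 0, 3, 0, 0 and 0 there. Neither passed the count filter in the pancreas comparison or between the control tissues, and Rpl7 did not in the pancreas comparison. The differences of Rps15a and Rps27l thus rest on a control group near the count floor. The median of the members was -0.58, against -0.38 over all genes.

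The ribosomal stalk, which recruits elongation factors, is made of Rplp0 and pairs of Rplp1 and Rplp2. Rplp0 held 2.03, 31.8, 36.2, 61.5 and 63.0 per 1000 ribosomal protein counts in acetone skin, 46.4 to 59.3 in DNFB skin, 22.1 to 46.4 in PBS pancreas and 31.5 to 41.9 in caerulein pancreas. Its value in acetone library 1 rested on 1 count of 492. Rplp1 held 11.6 to 32.5 in acetone skin, 11.5 to 20.8 in DNFB skin, 30.2 to 46.4 in PBS pancreas and 14.8 to 24.7 in caerulein pancreas. Rplp2 held 4.62 to 16.3, 3.36 to 6.31, 13.4 to 20.7 and 4.70 to 14.5 in the same order. None of the 3 passed in any comparison of the main fits, and Rplp0 was called in pancreas with at least 10 counts in every library.

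Per kilobase of coding length, Rpl41 and Rplp1 were among the most abundant members. Rpl41, which encodes one of the shortest known proteins, ranked first in each group with 266, 267, 833 and 459 per 1000 counts per kilobase in acetone skin, DNFB skin, PBS pancreas and caerulein pancreas. Its coding length of 78 bases is only part of its mRNA, so this scale overstates its level against longer genes. Rpsa ranked 31 and 32 in the skin groups (26.5 and 25.6), 3 in PBS pancreas (128) and 11 in caerulein pancreas (40.3). Rpl15 ranked 47 and 44 in skin, 76 in PBS pancreas and 69 in caerulein pancreas. Without division by length, Rplp0, Rpsa, Rpl41 and Rpl3 were among the 5 members with the highest mean normalized CPM over all 20 libraries.

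Among the paralogs, Rpl3l, Rpl10l and Rpl39l were rarely counted. Rpl3l, known from striated muscle, had 0 to 5 counts a library, all of them in skin, and its parent Rpl3 had 6 to 2434. Rpl10l, known from testis, had 5 counts in all, in 4 skin libraries, and Rpl39l had 0 to 3 a library. These 3 members were below the filter in every comparison. Rpl22l1 (0 to 184 counts), Rps27l (0 to 140) and Rpl7l1 (0 to 101) were counted in most libraries, each with its highest count in acetone library 11. Their parents Rpl22, Rps27 and Rpl7 had 0 to 210, 3 to 719 and 1 to 1152 counts. In skin the log2 fold changes, DNFB over acetone, were 0.39 ± 0.67 SE for Rpl22l1, -0.12 ± 0.61 SE for Rps27l and 0.05 ± 0.56 SE for Rpl7l1, with adjusted p-values of 0.976, 0.995 and 0.997.

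Ribosomal protein genes have many processed pseudogenes, copies made from their mRNA, and reads shared with them are divided by estimation in these files. In the annotation, 388 genes shared at least 50% of their 25-base words with a member, 71 of the 82 members had such a copy, and 340 copies had counts. Their counts amounted to 13.9 to 25.2% of the member counts in a library. Rpl5, which carries the 5S RNA together with Rpl11 and binds Mdm2, varied most over the 8 deepest libraries among the 61 members with a mean of at least 5 per 1000 there, and was named after its values were seen. Gm15500, a transcribed processed pseudogene at chromosome 7, 114705217 to 114706235 on the minus strand (GRCm38), shared 99.9% of its words with Rpl5.

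Rpl5 alone held 2.42 per 1000 ribosomal protein counts in acetone library 11, 4.16 in acetone library 12 and 5.54 to 7.99 in DNFB libraries 4, 6 and 13. In caerulein libraries 10, 19 and 20 it held 13.5, 17.8 and 14.2. Gm15500 ran the other way, with 19.01 and 15.8 in the acetone libraries, 12.02 to 17.1 in the DNFB libraries and 4.12 to 7.83 in the caerulein libraries. The sum of both was 19.9 to 23.4 per 1000 in all 8. Gm15500 thus exceeded Rpl5 in the 5 skin libraries of these 8 and lay below it in the 3 pancreas libraries. The other 12 libraries did not show this, since Gm15500 had 0 to 9 counts and fewer than Rpl5 in each of them, skin included. From which locus the reads arose was not tested.

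Rps2, a small-subunit protein at the mRNA entry site, departed in single libraries. It held 25.4 and 28.8 per 1000 in acetone libraries 11 and 12, 29.7 in DNFB library 4, and 29.3 and 21.9 in caerulein libraries 10 and 19. It held 10.6 and 5.93 in DNFB libraries 6 and 13 and 6.97 in caerulein library 20. Adding its 21 annotated copies gave 11.6, 6.75 and 7.33 in the low libraries and 23.1 to 32.3 in the others, so the low libraries stayed low with the copies included. The low libraries came from both tissues and both number series. In the other 12 libraries, with fewer counts, Rps2 held 2.76 to 32.9 per 1000.

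**Figure D5:**
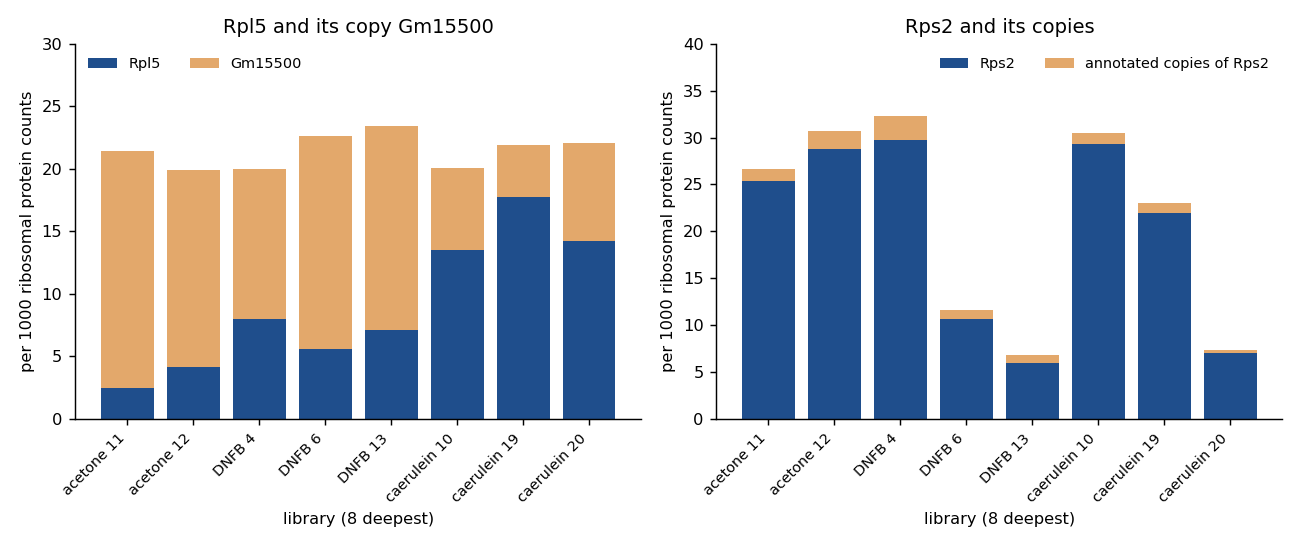
Stacked counts per 1000 ribosomal protein counts in the 8 libraries with at least 10000 such counts: left, Rpl5 and its pseudogene Gm15500; right, Rps2 and its annotated copies. The left bars reach 19.9 to 23.4 in every library, and the right bars fall to 6.75 to 11.6 in DNFB 6, DNFB 13 and caerulein 20.

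Genes that work with the ribosome were counted in the same fits. Of the cytosolic ribosomal proteins outside the symbol pattern, Rps3a1, a small-subunit protein, was higher in caerulein pancreas (log2 fold change 2.73 ± 0.84 SE, adjusted p = 0.038, edgeR) and in acetone skin over PBS pancreas (3.23 ± 0.98 SE, adjusted p = 0.019). Of 18 elongation factors and other genes known for a terminal oligopyrimidine tract, 10 were tested in pancreas and all 10 had a positive value, with a median of 1.19. Eef1a1, the main elongation factor, was the one called (2.504 ± 0.76 SE, adjusted p = 0.038), 1 of 10 where 8.14% of all genes tested were higher. In acetone skin over PBS pancreas, Eef1a1 (3.15 ± 0.999 SE, adjusted p = 0.024) and Gas5, a host of small nucleolar RNAs (2.56 ± 0.74 SE, adjusted p = 0.014), were called among 8 tested, where 12% of all genes tested were higher. Of 17 initiation factors, 7 were tested in pancreas, where Eif5 was higher (2.02 ± 0.63 SE, adjusted p = 0.040), and 8 between control tissues, where Eif4g2 was higher (1.996 ± 0.61 SE, adjusted p = 0.020). Whether these counts differ from those shares was not tested.

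In skin, 0 genes of these lists were called. The 30 ribosome biogenesis genes had 29 tested in skin with a median of 0.18, and 2 tested in pancreas. The 78 mitochondrial ribosomal protein genes had 62 tested in skin with a median of 0.07 and 0 in pancreas, where each gene fell below the filter. The 18 regulators, among them Myc, Mtor and Larp1, had 15 tested in skin with a median of -0.16 and 0 in pancreas. In the interaction, 0 genes of any of the 6 lists passed.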

How the data were processed

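The study made Smart-Seq2 libraries without molecular identifiers, sequenced them on an Illumina NovaSeq, mapped reads to GRCm38 with STAR 2.5.3, estimated counts with RSEM 1.3.1 and tested them with DESeq2 1.24.0. The authors deposited RSEM expected counts per gene, of which 94.7% were exactly whole, zeros included (87.2% of nonzero values); all were rounded here. RSEM divides reads shared by similar genes. Groups follow the labels. Each comparison was fitted with edgeR 4.0.16 in R 4.3.3 (filterByExpr with a minimum count of 10, TMM on the genes kept, quasi-likelihood test, Benjamini-Hochberg over all genes tested, threshold 0.05), and fits were tested on simulated data. DESeq2 1.42.0 was an alternative. Log2 fold changes have standard errors, and 95% intervals are 1.96 standard errors. Usable counts leave out 11 predicted genes that share at least 50% of 15-base words. No 2 libraries of a group were identical (40 pairs). Members, lists and tests were chosen with earlier results of these data known.

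The genes given with values were the members past the threshold (up to 8 a comparison), the 3 highest and 3 lowest log2 fold changes in each two-group comparison, the 5 highest mean levels, the stalk genes, Rpsa and the l and l1 paralogs; others are said to be chosen after their values were seen. Alternatives were other scalings and filters, satellite-like genes left out, the number series as a covariate or split, pseudogene counts added and each library left out. Some genes were left out of the named results and are not reported here, although they stay in the fits, totals and counts.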

Additional observations from a re-analysis of the deposited data

How the results depend on the processing

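Of the 20 libraries, 8 held at least 10000 ribosomal protein counts, none of them from PBS pancreas, and the Clopper-Pearson intervals cover counting error only. In skin, 0 members were called under every alternative run, where 0 to 8.66% of all genes tested were. The median log2 fold change moved most within label numbers 1 to 10, to 1.45. No paired analysis was possible because no label number occurs in more than 1 group. The alternatives split by number series, leaving out 2 libraries or adding every copy, and those of the make-up of the ribosomal protein counts, were chosen after seeing the data. The cause of the changes below was not tested.

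The 5 members called in pancreas became 3 with satellite-like genes left out (Rpl7, Rps3 and Rps7), 28 with scaling to usable counts, 22 with no filter, 20 with DESeq2 and 3 with the number series as covariate (Rpl9, Rps18 and Rps3). As parts of the members tested these are 4.35%, 43.8%, 27.5%, 25.3% and 4.69%. Of all genes tested in these fits, 4.43%, 20.3%, 3.18%, 7.44% and 8.56% were higher. With at least 10 counts in every library, 5 of 13 members were higher (38.5%, against 16.8% of all genes tested). Rpl5, Rplp0 and Rps9 were among these 5, and none of the 5 of the main fit was. The 5 calls of the main fit became 0 within numbers 1 to 10, 37 within numbers 11 to 20 and 17 without caerulein libraries 9 and 18, and ran from 0 to 11 when 1 library was left out. The counts of 37 and 17 are 56.9% and 21.5% of the members, where 21.7% and 18.1% of all genes tested were higher. The pancreas median became 1.83 with no filter, -0.058 within numbers 1 to 10 and 2.23 within numbers 11 to 20. The 8 members called between control tissues became 13 with DESeq2 size factors, 22 with scaling to usable counts, 1 (Rps9) with at least 10 counts in every library, 17 with DESeq2, 3 within numbers 1 to 10, 65 within numbers 11 to 20 and 3 without acetone libraries 11 and 12. The counts of 13, 22, 1, 17 and 65, all higher, are 22%, 37.3%, 16.7%, 21.5% and 82.3% of the members tested. Of all genes tested in these fits, 14.1%, 16.2%, 28.6%, 6.66% and 26.2% were higher. The counts of 3 are 4.17% and 5.08%, where 11.1% and 11.5% of all genes tested were called in either direction. They ran from 2 to 22 when 1 library was left out, and the median became -0.88 and 2.82 within the 2 number series. The interaction gave 2 calls (Rps15a and Rps27l) with scaling to usable counts and with no filter and 1 (Rps15a) with DESeq2, and its median became -1.72 with no filter. These calls are 2.53%, 2.44% and 1.27% of the members, where 6.42%, 2.24% and 5.41% of all genes tested were called in either direction. Both genes were near the count floor in PBS pancreas. Scaling to usable counts moved the median of all genes to 0.14 in skin, 0.62 in pancreas, 0.22 between control tissues and -1.07 in the interaction.

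The 12 members called in the make-up of the control tissues became 0 with no filter, 0 with the DNFB and caerulein libraries in their place, 1 within numbers 1 to 10 and 29 within numbers 11 to 20, and ran from 2 to 10 when 1 library was left out. Over all counts in place of usable counts, the share on the members was 1.31% in acetone skin, 1.19% in DNFB skin, 0.119% in PBS pancreas and 0.675% in caerulein pancreas, which turns the order of the skin means (2.81% and 3.48% of usable counts). Adding pseudogene counts changed none of these counts by more than 1.5 times, but with the named pseudogenes added Rpl9 and Rpl34 were no longer called in pancreas.

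Of the single-gene values under alternatives, 415 kept their direction and side of the threshold, 101 were no longer called, 15 became called and 16 changed sign, none of which was a called gene. In skin, Rps2 became 0.21 with the number series as covariate, 1.84 within numbers 1 to 10 and 1.42 without acetone libraries 11 and 12, and ran from -0.68 to 0.12 when 1 library was left out. Rps12 became 0.18 within numbers 1 to 10, and Rpl15, Rpl7a and Rpl27 became -0.68, -0.29 and -0.59 within numbers 11 to 20. In pancreas, Rps15 became 0.11 with scaling to usable counts, and with at least 10 counts in every library Rpsa, Rpl28 and Rps15 became 0.24, 0.44 and 0.72. Within numbers 11 to 20 Rps15 became 0.25 in pancreas and 0.24 between control tissues, where Rpsa became 1.12 with at least 10 counts in every library.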
